A study of Homo sapiens with 2 samples.

Results

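CDKN1A and 9 other genes of growth arrest and cell growth were followed in OVCAR5 cells, a human ovarian carcinoma line. The genes were taken by name: CDKN1A, CDKN1B, GADD45A, GADD45B, MDM2, GDF15, TOB1, BTG1, CCND1 and MYC, which are 10 of the 36601 genes in the matrix. The first 8 are mostly known as brakes or stress sensors, and CCND1 and MYC as drivers of division. All 10 had a mean level of at least 0.05 unique molecular identifiers (UMIs, each standing for 1 captured transcript) per 10000 UMIs, which was the limit for the genes compared here, and 9361 genes passed it.

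The cells had grown as tumours in NSG-b2m-/- mice, held an IFN-gamma (interferon gamma) sensing reporter with a cyan fluorescent protein, and came from a pool of 5 tumours. After digestion they were kept in culture for 6 h, either with 100 ng/ml IFN-gamma plus 10 ng/ml tumour necrosis factor alpha (TNF), with 10 ng/ml TNF, or without cytokine. The cells were tagged with hashtag antibodies, pooled, sorted for the cyan protein, which marks bystander tumour cells, and sequenced as 1 gene expression library with 1 hashtag library. No label says which hashtag carried which treatment or which tumour.

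Cells were assigned by their pair of hashtags, and 3144 of 3538 kept cells had 1 clear pair, giving 15 hashed samples. Then 3 sets of 5 hashed samples were used, and these were inferred from expression and not read from labels. The IFN-gamma plus TNF-like set (both-like for short) held HTO2+HTO7, HTO3+HTO6, HTO3+HTO9, HTO4+HTO6 and HTO4+HTO9. The TNF-like set held HTO2+HTO6, HTO2+HTO10, HTO3+HTO5, HTO3+HTO8 and HTO4+HTO8. The unstimulated-like set held HTO2+HTO5, HTO2+HTO8, HTO3+HTO7, HTO4+HTO7 and HTO4+HTO10. Values are given in this order throughout. Differences between the sets are therefore differences between hashed samples that were sorted by their own transcripts. They are given as values, medians and ranges with no p-value, since all cells came from 1 library and no label gives the groups, and they do not measure the effect of a treatment.

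Hashed samples held 49 to 630 cells and 582102 to 7324691 UMIs, with median depths of 10942 to 12405 UMIs per cell and median mitochondrial shares of 12.2% to 14.7%. A summed list of 27 IFN-gamma target genes, none of them among the 10, stood at 218 to 324 UMIs per 10000 in the both-like samples, at 10.8 to 21.5 in the TNF-like samples and at 8.07 to 13.3 in the unstimulated-like samples. A summed list of 28 NF-kB target genes, also without any of the 10, stood at 123 to 153, 84.3 to 123 and 19.5 to 30.9 in the same sets. All 9 epithelial markers were detected, and their summed level was 41.6 to 49.9 in the both-like samples, 45.7 to 67.6 in the TNF-like samples and 71.97 to 88.3 in the unstimulated-like samples, so it differed between sets along with the genes below. Its part in their values was not tested. Of 7 T or NK cell markers, 6 had no count, as had all 3 erythroid markers. The 6 myeloid markers summed to 0.0859 to 0.279 in any hashed sample, the 6 fibroblast markers to at most 0.0478, the 4 endothelial markers to at most 0.0501 and the 3 B cell markers to at most 0.0107.

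The cell cycle is driven by kinases that are switched on by cyclins. CDKN1A encodes p21 and CDKN1B encodes p27, proteins that bind cyclin and kinase complexes and hold them inactive. The tumour suppressor p53 transcribes CDKN1A, MDM2 and GDF15 after DNA damage, but CDKN1A can also be induced without p53. GADD45 proteins are stress sensors that bind kinases, BTG and TOB proteins slow division and recruit the CCR4-NOT complex that shortens mRNA tails, and CCND1 and MYC push cells towards division.

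Sequence upstream of the genes is shown for 4 members whose levels kept some sets of hashed samples apart. GADD45B did so only between the both-like and the TNF-like set. TOB1 also kept sets apart, but its windows, which held no match, are not shown. The windows shown therefore do not stand for all such genes. Each window runs from 250 bases before to 50 bases after a RefSeq gene start, on GRCh38.p14, and is written 5′ to 3′ on the strand of the gene. Capitals mark matches to the motifs searched on both strands: NF-kB and ISRE (consensus sites with free bases inside), GAS, AP-1, the E-box, CRE and TATA. CDKN1A is chr6:36678464-36678763 on the plus strand, GADD45B is chr19:2475877-2476176 on the plus strand, BTG1 is chr12:92145797-92146096 on the minus strand and GDF15 is chr19:18385908-18386207 on the plus strand.
CDKN1A: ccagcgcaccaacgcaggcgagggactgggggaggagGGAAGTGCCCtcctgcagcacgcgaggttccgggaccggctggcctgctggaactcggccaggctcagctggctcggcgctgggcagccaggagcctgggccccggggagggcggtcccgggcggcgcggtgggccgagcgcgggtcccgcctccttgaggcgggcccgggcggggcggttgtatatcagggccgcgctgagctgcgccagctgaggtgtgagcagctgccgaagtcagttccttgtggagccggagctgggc
GADD45B: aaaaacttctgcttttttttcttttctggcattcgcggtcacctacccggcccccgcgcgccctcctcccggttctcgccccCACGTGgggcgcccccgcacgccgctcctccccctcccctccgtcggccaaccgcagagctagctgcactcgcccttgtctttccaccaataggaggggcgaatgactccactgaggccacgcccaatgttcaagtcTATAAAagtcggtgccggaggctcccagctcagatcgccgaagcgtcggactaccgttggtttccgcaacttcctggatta
BTG1: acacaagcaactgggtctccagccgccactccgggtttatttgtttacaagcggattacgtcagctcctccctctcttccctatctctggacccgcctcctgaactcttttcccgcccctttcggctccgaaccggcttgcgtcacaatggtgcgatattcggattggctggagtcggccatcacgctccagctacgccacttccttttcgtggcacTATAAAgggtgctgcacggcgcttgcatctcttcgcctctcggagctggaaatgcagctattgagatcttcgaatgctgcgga
GDF15: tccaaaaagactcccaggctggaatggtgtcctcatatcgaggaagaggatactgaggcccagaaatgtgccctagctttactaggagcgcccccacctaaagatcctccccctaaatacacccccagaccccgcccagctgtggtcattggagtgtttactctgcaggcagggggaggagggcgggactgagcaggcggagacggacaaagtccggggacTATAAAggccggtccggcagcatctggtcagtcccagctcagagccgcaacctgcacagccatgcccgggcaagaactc
The CDKN1A window held 1 NF-kB match, from base -213 to base -204 before the start, which is found in 6.52% of 35116 promoter windows of this length. The GADD45B window held the E-box CACGTG, which 7.26% of windows hold, and a match to TATAAA whose first base lies at -31. TATA matches also lay at -33 in BTG1 and at -29 in GDF15, and 11.5% of windows hold one. None of the 4 windows held a match to the GAS letters TTCNNNGAA (7.66% of windows) or an ISRE match (3.57%). Windows were at hand for 7 of the 10 genes. Of the other 3 genes with windows, CDKN1B and TOB1 had no match, and MDM2 had an AP-1 match in its downstream windows. The AP-1 letters searched were TGANTCA, found in 7.71% of all windows. The CRE letters were TGACGTCA, found in 1.85%, with no match in the windows of these genes. A match of letters is no evidence of binding.

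CDKN1A was highest in the both-like samples and lowest in the unstimulated-like samples, with the TNF-like samples between and no overlap anywhere. The CDKN1A gene lies on the plus strand of chromosome 6 at 36676460 to 36687339 (GRCh38, GENCODE 29). Its level was 1.35, 1.23, 1.88, 1.77 and 1.67 UMIs per 10000 in the both-like samples, 0.670, 0.840, 0.893, 0.582 and 0.854 in the TNF-like samples, and 0.207, 0.327, 0.154, 0.356 and 0.150 in the unstimulated-like samples. The lowest both-like sample was HTO3+HTO6 with 458 UMIs (exact 95% Poisson interval 1.12 to 1.35), and the highest TNF-like sample was HTO3+HTO5 with 52 UMIs (0.667 to 1.17), and these intervals overlapped. The lowest TNF-like sample, HTO3+HTO8 (0.528 to 0.640), stood clear of the highest unstimulated-like sample, HTO4+HTO7 (0.272 to 0.458).

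The set medians of CDKN1A were 1.67 in the both-like, 0.840 in the TNF-like and 0.207 in the unstimulated-like samples. The both-like median was 8.09 times the unstimulated-like median and 1.99 times the TNF-like median, and the TNF-like median was 4.07 times the unstimulated-like median. CDKN1A stood at the 98.7, 96.7 and 99.2 percentile of all tested genes in these ratios. Leaving out the hashed samples of fewer than 75 cells gave 5.07 for the first ratio and 2.83 for the third. The second, at 1.99, would miss a limit of 2. All 3 sets in the order both-like, TNF-like, unstimulated-like from high to low, with no overlap, were seen for 113 of 9361 genes (1.21%), and CDKN1A was the only one of the 10 among them. DINOL, a noncoding gene on the opposite strand within CDKN1A, had 3 UMIs in all.

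**Figure D1:**
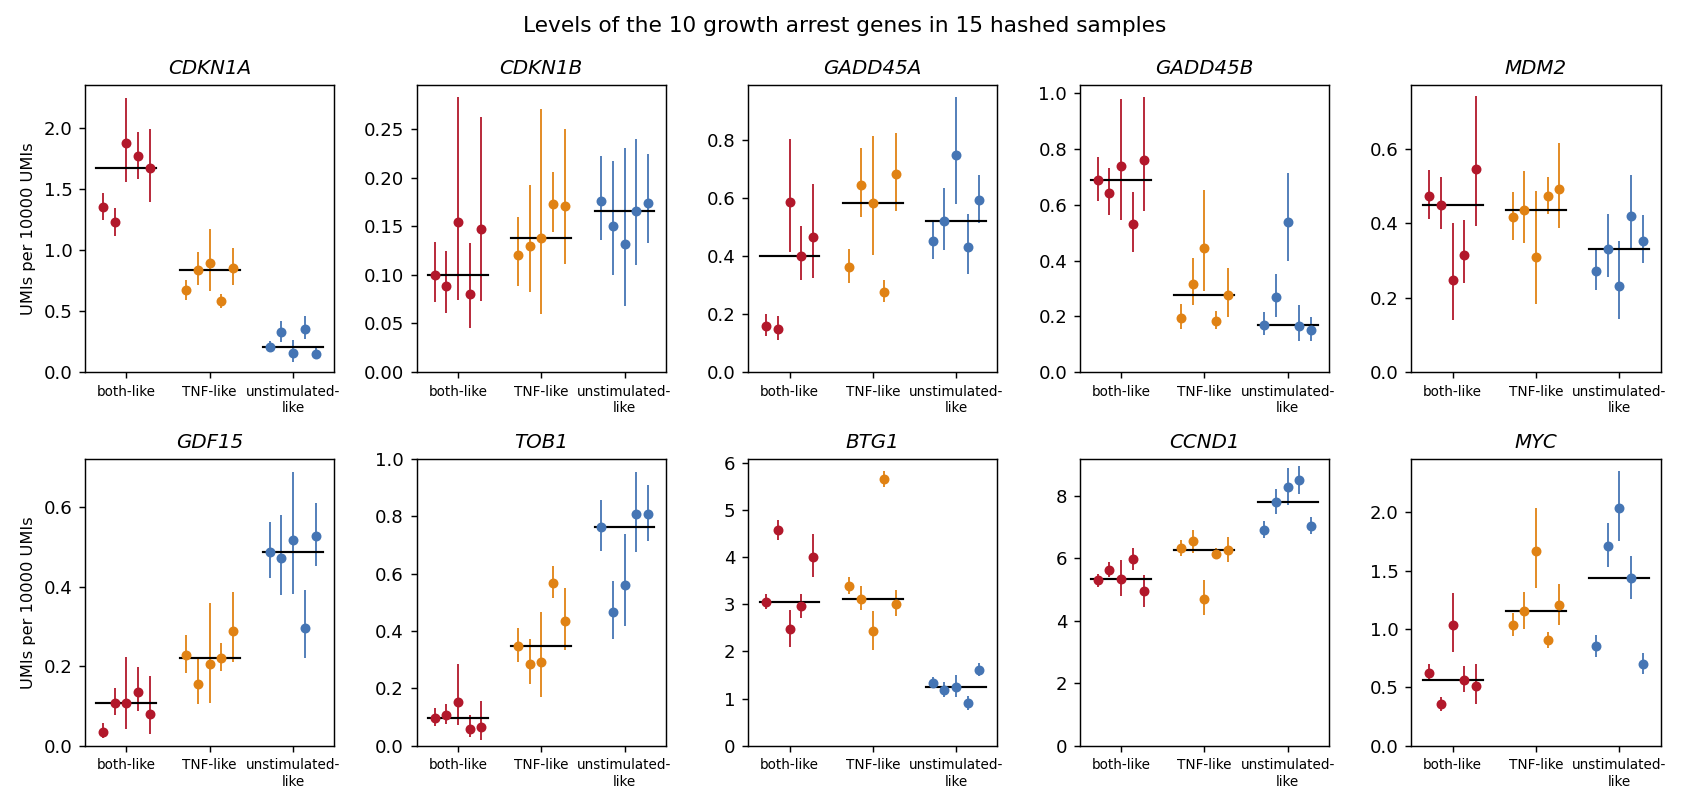
Levels of the 10 genes in UMIs per 10000 UMIs (y axes, from 0), by set of hashed samples (x axes). Points are the 15 hashed samples with exact 95% Poisson intervals, which cover counting error only, and black lines are set medians. CDKN1A falls into 3 levels with medians of 1.67, 0.840 and 0.207, and TOB1 and GDF15 run the opposite way.

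For each comparison a gene was called separated when every hashed sample of a set lay above every sample of the other and the medians differed at least 1.5-fold. Between the both-like and the unstimulated-like samples, CDKN1A and BTG1 were separated upwards and GDF15 and TOB1 downwards. That is 2 of 10 members higher, where 6.84% of all tested genes were, and 2 of 10 lower, where 12.6% were. Between the TNF-like and the unstimulated-like samples, CDKN1A and BTG1 were higher (2.92% of all genes) and GDF15 was lower (1.63%). Between the both-like and the TNF-like samples, CDKN1A and GADD45B were higher (4.37% of all genes) and GDF15 and TOB1 lower (4.45%). The comparisons share samples, so they are not independent of each other. The median tested gene had a ratio of 0.848 in the both-like over the unstimulated-like set (-0.24 on the log2 scale), 0.890 in the both-like over the TNF-like set (-0.17) and 0.955 in the TNF-like over the unstimulated-like set (-0.07). Ratios near those values are near the middle of all genes. At any ratio, 2 members were higher and 3 lower without overlap between the both-like and the unstimulated-like samples (8.57% and 19.8% of all genes), 2 higher and 2 lower between the TNF-like and the unstimulated-like samples (4.04% and 4.09%), and 2 higher and 2 lower between the both-like and the TNF-like samples (5.70% and 9.34%).

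**Figure D2:**
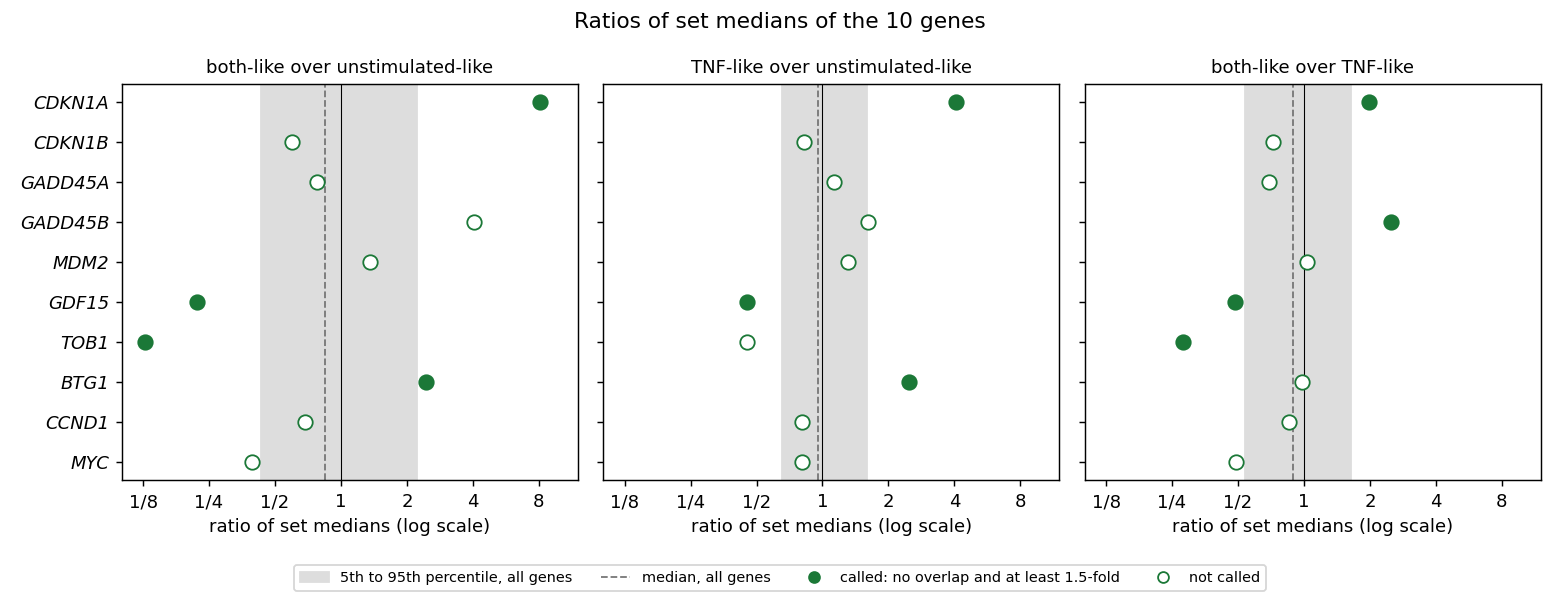
Ratio of set medians (x axes, log scale) for the 10 genes (y axis) in the 3 comparisons. Filled points are genes whose sets did not overlap and differed at least 1.5-fold, the grey band spans the 5th to 95th percentile of all tested genes and the dashed line is their median. CDKN1A lies at 8.09, 4.07 and 1.99, and TOB1 at 0.127, 0.455 and 0.280.

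CDKN1B, the sister inhibitor p27, did not follow CDKN1A. It lies on the plus strand of chromosome 12 at 12715058 to 12722371. Its level was 0.0995, 0.0886, 0.154, 0.0805 and 0.147 UMIs per 10000 in the both-like samples, 0.120, 0.129, 0.137, 0.173 and 0.171 in the TNF-like samples, and 0.176, 0.150, 0.132, 0.166 and 0.174 in the unstimulated-like samples. The sets overlapped in all comparisons, at 8 to 127 UMIs per hashed sample. The both-like over unstimulated-like ratio of medians was 0.599. Without the hashed samples of fewer than 75 cells that ratio was 0.521 and the both-like over TNF-like ratio 0.590, and both pairs of sets were separated.

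MDM2, the ubiquitin ligase that p53 induces and that degrades p53, overlapped between all sets. The gene is on the plus strand of chromosome 12 at 68808176 to 68850686. It stood at 0.475, 0.451, 0.247, 0.316 and 0.548 UMIs per 10000 in the both-like samples, 0.418, 0.436, 0.309, 0.474 and 0.492 in the TNF-like samples, and 0.271, 0.332, 0.231, 0.421 and 0.354 in the unstimulated-like samples. The ratios of medians over the unstimulated-like set were 1.36 for the both-like and 1.31 for the TNF-like set. These MDM2 ratios stood at the 88.8 and 90.5 percentile of all tested genes. CDKN1A and MDM2, both known p53 targets, showed median ratios of 8.09 and 1.36 in the same samples.

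GDF15, a secreted stress factor of the TGF-beta family, ran opposite to CDKN1A. The gene is on the plus strand of chromosome 19 at 18374731 to 18389176. Its level was 0.0347, 0.107, 0.108, 0.134 and 0.0802 UMIs per 10000 in the both-like samples, 0.228, 0.156, 0.206, 0.221 and 0.289 in the TNF-like samples, and 0.488, 0.472, 0.518, 0.297 and 0.528 in the unstimulated-like samples. The sets did not overlap, but the TNF-like HTO4+HTO8 at 0.289 (0.210 to 0.388) and the unstimulated-like HTO4+HTO7 at 0.297 (0.220 to 0.391) had intervals that overlapped almost fully.

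The GDF15 medians were 0.107 in the both-like, 0.221 in the TNF-like and 0.488 in the unstimulated-like samples. The ratio of the first to the third was 0.220, of the second to the third 0.453, and of the first to the second 0.485. The order both-like, TNF-like, unstimulated-like from low to high, with no overlap, was seen for 87 of 9361 genes (0.929%), and GDF15 was the only one of the 10 among them. Its separation between the TNF-like and unstimulated-like sets was lost under several other settings, for example when levels were scaled by the median of gene ratios (0.484). Its separation between the both-like and TNF-like sets was lost in thinned cells (0.554), in cells of at most 15% mitochondrial UMIs (0.580), without the cells highest for cell cycle genes (0.450) and without those highest for amino acid stress genes (0.581).

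The GADD45 genes differed from each other. GADD45B, on the plus strand of chromosome 19 at 2476122 to 2478259, is known as a target of NF-kB. It stood at 0.690, 0.644, 0.740, 0.531 and 0.761 UMIs per 10000 in the both-like samples, 0.195, 0.318, 0.447, 0.184 and 0.276 in the TNF-like samples, and 0.170, 0.268, 0.540, 0.166 and 0.150 in the unstimulated-like samples. All both-like samples lay above all TNF-like samples, with a median ratio of 2.50, although they overlapped in cells of at most 15% mitochondrial UMIs (2.03) and without the cells highest for cell cycle genes (2.54). The both-like over unstimulated-like ratio was 4.05, but the unstimulated-like HTO3+HTO7, at 0.540 with 49 UMIs, lay just above the lowest both-like sample, HTO4+HTO6, at 0.531 with 99 UMIs. Without HTO3+HTO7 the sets were separated at a ratio of 4.10, and without HTO4+HTO6 at 4.20. The TNF-like over unstimulated-like ratio was 1.62, with overlap, and among the hashed samples that carried HTO3 it was 0.584, and the both-like over unstimulated-like ratio 1.28.

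GADD45A, on the plus strand of chromosome 1 at 67685061 to 67688338, is induced by p53 and by the amino acid stress response. It was at 0.160, 0.148, 0.586, 0.402 and 0.468 UMIs per 10000 in the both-like samples, 0.363, 0.646, 0.584, 0.277 and 0.683 in the TNF-like samples, and 0.454, 0.520, 0.749, 0.433 and 0.593 in the unstimulated-like samples. All 3 pairs of sets overlapped, and the both-like samples alone differed 3.97-fold. In HTO4+HTO10, 1 cell held 111 of the 201 GADD45A UMIs, and without it that sample was at 0.266, which gave ratios of 0.885 for the both-like and 1.29 for the TNF-like over the unstimulated-like set. HTO2+HTO7 and HTO3+HTO6, the 2 both-like samples of most cells, were the lowest of all 15. Without the hashed samples of fewer than 75 cells the both-like over unstimulated-like ratio was 0.328 with no overlap, against 0.773 with all samples.

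BTG1 and TOB1 belong to the same antiproliferative family and went in opposite directions. BTG1, on the minus strand of chromosome 12 at 92140278 to 92145897, stood at 3.06, 4.57, 2.47, 2.96 and 4.01 UMIs per 10000 in the both-like samples, 3.39, 3.12, 2.42, 5.66 and 3.01 in the TNF-like samples, and 1.33, 1.18, 1.26, 0.902 and 1.61 in the unstimulated-like samples. The both-like and TNF-like samples overlapped almost fully, with a median ratio of 0.981, and every sample of both lay above every unstimulated-like sample. The ratios to the unstimulated-like median were 2.43 for the both-like and 2.48 for the TNF-like set. In the same samples CDKN1A differed 1.99-fold. AC025164.1, which overlaps BTG1 on the opposite strand, had 108 UMIs in all.

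TOB1 lies on the minus strand of chromosome 17 at 50862223 to 50867978. It stood at 0.0972, 0.107, 0.154, 0.0590 and 0.0668 UMIs per 10000 in the both-like samples, 0.348, 0.285, 0.292, 0.568 and 0.433 in the TNF-like samples, and 0.764, 0.467, 0.562, 0.807 and 0.808 in the unstimulated-like samples. The both-like samples were below all others, but in thinned cells they overlapped with the TNF-like samples (0.305). The both-like over unstimulated-like ratio of 0.127 was lower than that of all but 0.107% of tested genes. The TNF-like over unstimulated-like ratio was 0.455, but the TNF-like HTO3+HTO8 at 0.568 overlapped with the unstimulated-like HTO2+HTO8 at 0.467 and HTO3+HTO7 at 0.562. Without HTO3+HTO8 these sets were separated at 0.418. TOB1-AS1, which overlaps TOB1 on the other strand, had only 18 UMIs in all.

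CCND1, the cyclin D1 gene that starts the cycle with CDK4 and CDK6, was slightly lower in the cytokine-like sets. It is on the plus strand of chromosome 11 at 69641087 to 69654474. Its level was 5.28, 5.62, 5.33, 5.98 and 4.94 UMIs per 10000 in the both-like samples, 6.32, 6.53, 4.71, 6.14 and 6.26 in the TNF-like samples, and 6.91, 7.80, 8.26, 8.49 and 7.04 in the unstimulated-like samples. Neither cytokine-like set overlapped with the unstimulated-like set, at ratios of 0.684 and 0.803, but neither passed the 1.5-fold limit. LTO1, which overlaps CCND1 on the opposite strand, had 557 UMIs in all. Scaling by the median of gene ratios gave 0.795 and 0.850, with overlap in both, so the separation of CCND1 depended on the scaling. Leaving out HTO2+HTO5 or HTO4+HTO10 took the first ratio past the limit (0.664), as did thinning (0.659).

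MYC, the growth-promoting transcription factor, was lower in the both-like samples than in most others. It is on the plus strand of chromosome 8 at 127735434 to 127741434. It stood at 0.623, 0.354, 1.03, 0.563 and 0.508 UMIs per 10000 in the both-like samples, 1.03, 1.15, 1.67, 0.905 and 1.202 in the TNF-like samples, and 0.852, 1.71, 2.04, 1.44 and 0.696 in the unstimulated-like samples. The medians gave ratios of 0.392 for the both-like over the unstimulated-like set and 0.489 over the TNF-like set, with overlap that came from HTO3+HTO9, a both-like sample of 53 cells and 67 MYC UMIs. Without it the ratios were 0.373 and 0.465 and the both-like samples lay below all others. Without any of the samples of fewer than 75 cells they were 0.492 and 0.516, also separated. The TNF-like over unstimulated-like ratio was 0.803 with wide overlap, since the unstimulated-like samples alone differed 2.93-fold.

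The share of cells with a UMI was read with all cells thinned to 5000 UMIs. This kept 2928 cells, and 216 were too shallow. CDKN1A was found in 41.0% to 52.5% of cells of the both-like samples, 23.1% to 40.0% of the TNF-like samples and 5.93% to 14.3% of the unstimulated-like samples. Unthinned, the medians were 69.7%, 45.9% and 17.4%. The sets kept their order without overlap, so the levels came with more cells holding a transcript. TOB1 was found in 2.098% to 8.16% of both-like, 8.89% to 20.4% of TNF-like and 20.4% to 32.5% of unstimulated-like cells per sample, with unthinned medians of 10.1%, 28.4% and 46.7%.

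GDF15 was found in 1.27% to 8.16%, 2.22% to 5.98% and 10.3% to 13.7% of thinned cells in the both-like, TNF-like and unstimulated-like samples, and its unthinned medians were 6.45%, 10.9% and 17.2%. GADD45B was found in 17.5% to 35.6%, 6.84% to 13.3% and 6.14% to 21.2% of thinned cells in the same order, with unthinned medians of 41.5%, 18.4% and 15.5%. BTG1 was found in 53.1% to 79.7% of both-like and 57.8% to 74.2% of TNF-like cells per sample, against 32.8% to 41.9% of unstimulated-like cells. CCND1 was in at least 80.1% of thinned cells in every hashed sample. No cells in the pool are known to be free of these transcripts, so the part of free RNA in the low shares was not measured.

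**Figure D3:**
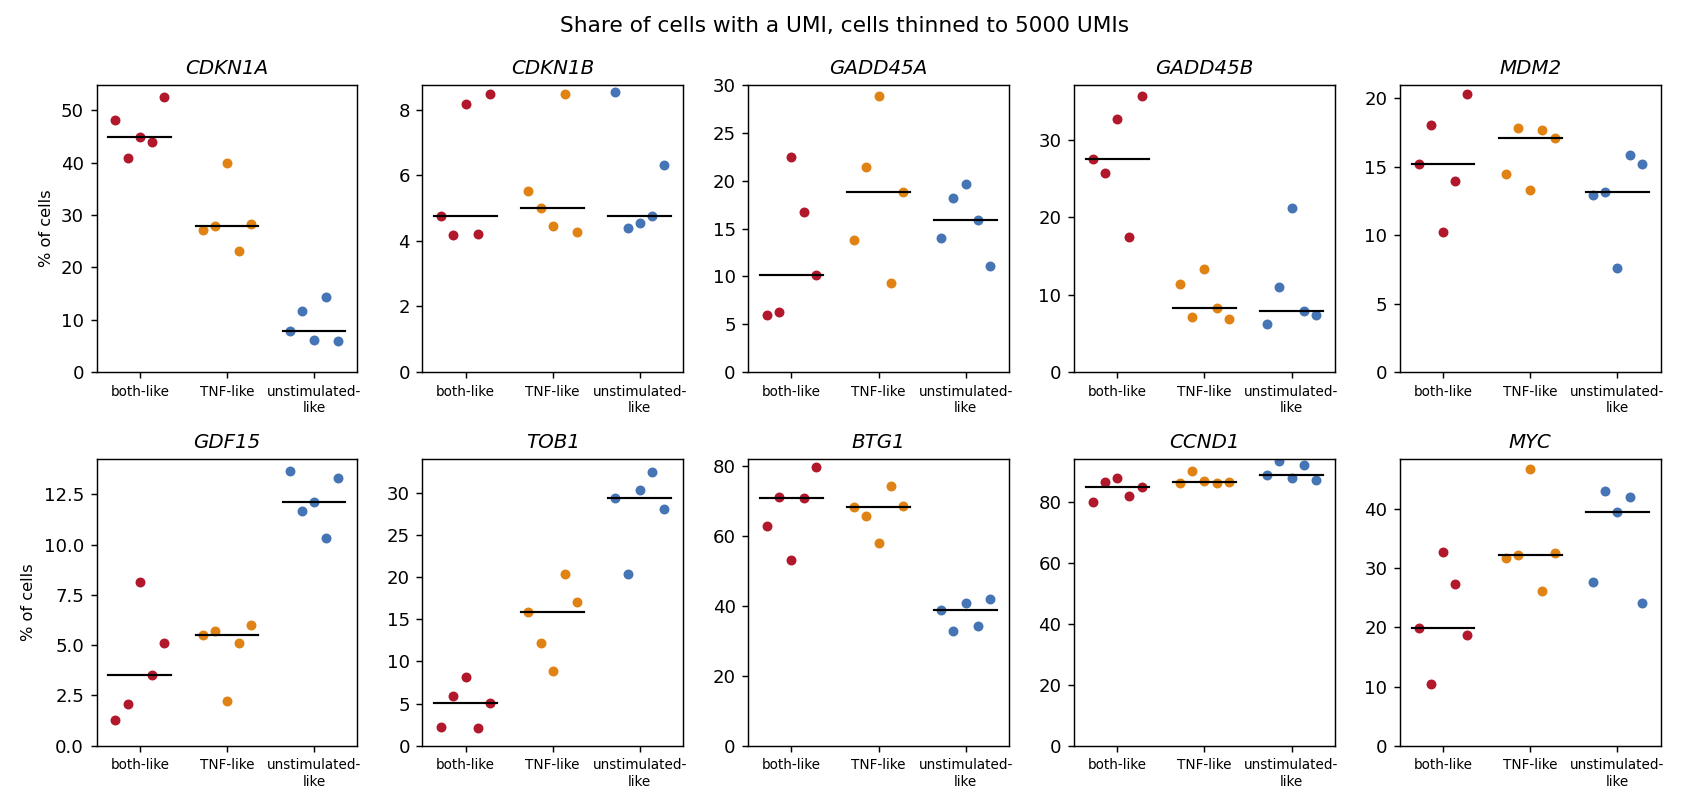
Share of cells with at least 1 UMI (y axes, in %, from 0) in cells thinned to 5000 UMIs, for the 10 genes, by set of hashed samples (x axes). Points are the 15 hashed samples and black lines set medians. The CDKN1A share is 41.0% to 52.5%, 23.1% to 40.0% and 5.93% to 14.3% in the 3 sets.

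Within each hashed sample, thinned cells in the top 10% by the summed level of a gene list were set beside the other cells of that sample, so that no inferred set was used. The lists held none of the 10 genes. Across the 15 hashed samples, 294 top cells faced 2634 others, and many samples had few top cells, so counts of samples are given with the ratio of mean levels. With no test, these are descriptions of this library.

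In the cells highest for G2/M and S phase genes, GADD45A was higher than in other cells of 13 of 15 hashed samples, with mean levels of 1.32 and 0.411 UMIs per 10000. In HTO4+HTO10, where the top cells reached 6.15, 1 cell held 73 of the 109 thinned GADD45A UMIs. Without that sample the ratio of means was 2.29, against 3.21 with it, and 12 of 14 samples were higher. TOB1 was lower in 14 of 15, at 0.218 and 0.437, but on only 39 UMIs in all top cells. Several samples had no TOB1 UMI in their top cells. In HTO4+HTO6, for example, the 14 top cells held 0 and the 129 other cells 3, so this count of samples is weakly set. MDM2 averaged 0.638 in the cells highest for cell cycle genes and 0.313 in the others, and was higher in 10 of 15 samples. CDKN1A averaged 0.854 in these cells and 0.852 in the others, but its samples went both ways. The top cells were lower in 4 of 5 both-like samples, higher in 3 of 5 TNF-like samples and higher in 2 of 5 unstimulated-like samples. Those counts rest on few UMIs, 126 in all top cells. The top cells had a median of 16160.5 UMIs before thinning, and the other cells 11623.

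In the cells highest for amino acid and unfolded protein stress genes, GADD45A was higher in 14 of 15 hashed samples, with means of 1.56 and 0.386. Without HTO4+HTO10 the ratio of means was 3.14, against 4.05 with it, and 13 of 14 samples were higher. MYC was higher in 14 of 15 too, at 1.55 and 1.02, and BTG1 in 14 of 15, at 3.82 and 2.62. CCND1 was lower in 14 of 15, at 4.08 and 6.62, and TOB1 in 14 of 15, at 0.234 and 0.435. TOB1 had only 41 UMIs in all top cells, and none in some samples. GDF15, a known target of this response, averaged 0.577 in the cells highest for stress genes and 0.205 in the others, and was higher in 10 of 15. CDKN1A averaged 0.765 and 0.862, and was higher in 1 of 5 both-like, 4 of 5 TNF-like and 5 of 5 unstimulated-like samples, on 117 UMIs in all top cells. GADD45B averaged 0.436 and 0.445, and was higher in 0 of 5, 4 of 5 and 4 of 5 in the same order, on 65 UMIs. In HTO2+HTO10, 1 cell held 11 of the 20 thinned GADD45B UMIs. Without that sample the ratio of means for GADD45B was 0.737, against 0.980 with it. Depth was alike here, with medians of 11972.5 and 11890 UMIs, and the median mitochondrial shares were 11.7% and 13.2%. Of the 294 top cells, 26 were also among the top cells for cell cycle genes.

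In the cells highest for NF-kB targets, CDKN1A averaged 1.38, against 0.792 in the others, and was higher in 12 of 15 hashed samples. BTG1 was higher in 11 of 15, at 3.75 and 2.63, CCND1 was lower in 12 of 15, at 5.37 and 6.48, and MYC was lower in 11 of 15, at 1.01 and 1.08. GADD45B was higher in 7 of 15, at 0.497 and 0.437. These 2 totals mix directions. MYC was lower in 5 of 5 both-like and 4 of 5 TNF-like samples, but higher in 3 of 5 unstimulated-like samples. GADD45B was higher in 3 of 5 both-like, 0 of 5 TNF-like and 4 of 5 unstimulated-like samples, on 62 UMIs in all top cells. In the cells highest for IFN-gamma targets GADD45B was higher in 12 of 15, at 0.644 and 0.421, BTG1 in 12 of 15, at 3.71 and 2.63, and CDKN1A in 11 of 15, at 1.09 and 0.825. By set, CDKN1A was higher in 4 of 5 both-like, 5 of 5 TNF-like and 2 of 5 unstimulated-like samples. The top cells of HTO3+HTO7, HTO4+HTO7 and HTO4+HTO10 held no CDKN1A UMI. CCND1 was lower in 12 of 15, at 5.19 and 6.50. GADD45A was lower in 9 of 15 for both lists, but its ratios of means were 1.72 and 1.66, and 0.948 and 0.853 without HTO4+HTO10. GDF15 likewise had 1.16 and 1.23, and 0.738 and 0.840 without that sample. The GADD45A totals also mix directions. With the NF-kB list GADD45A was higher in 2 of 5 both-like, 0 of 5 TNF-like and 4 of 5 unstimulated-like samples. With the IFN-gamma list it was higher in 2 of 5, 1 of 5 and 3 of 5 in the same order. These lists overlapped in the cells they picked, with 75 of 294 top cells shared. Over single thinned cells, the 45 pairs of members had median Spearman rho values within hashed samples of -0.155 (BTG1 with CCND1) to 0.145 (CDKN1A with BTG1). Such values are weak and the counts sparse, so no pair of members is described as moving together from cell to cell.

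**Figure D4:**
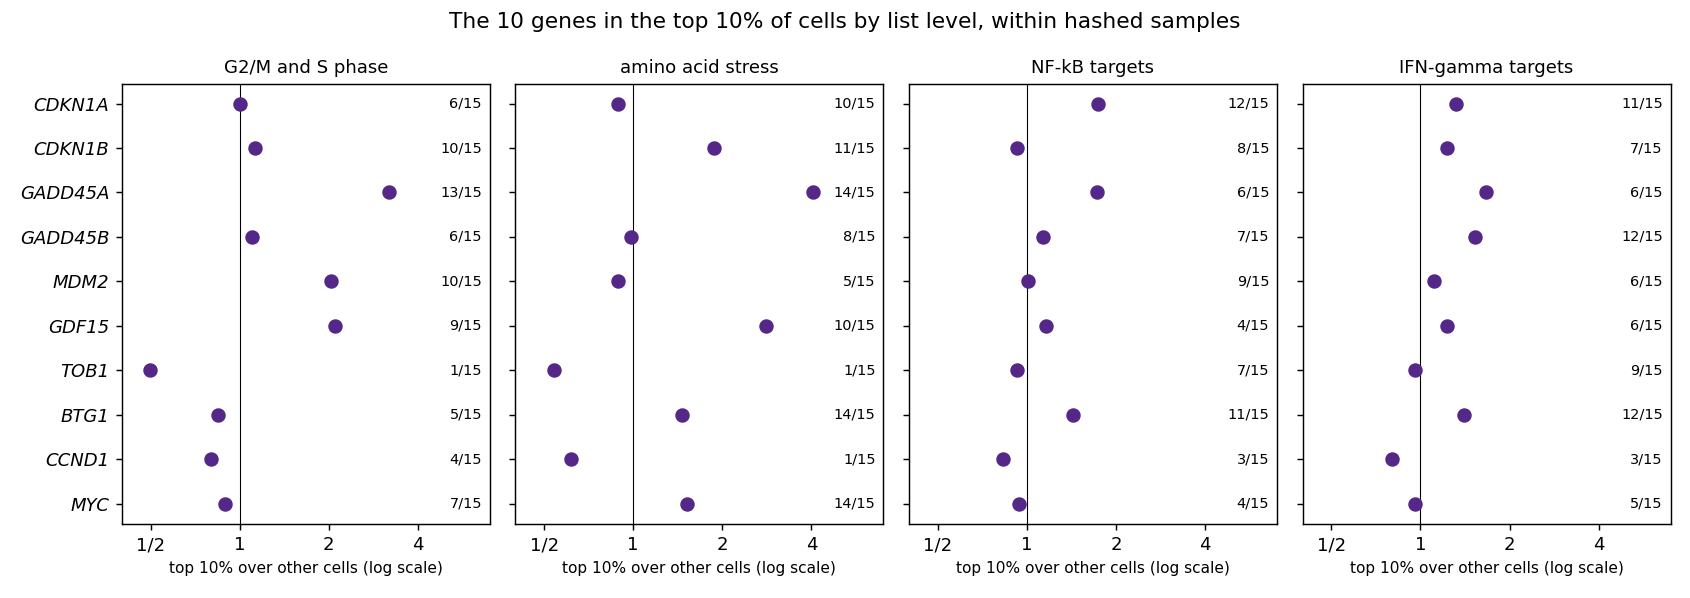
Mean level of each gene in the top 10% of cells by the summed level of a gene list over its mean level in the other cells (x axes, log scale), averaged over the 15 hashed samples, for 4 lists (panels). Numbers at the right give in how many of 15 samples the top cells were higher. GADD45A is higher with the stress list (14/15) and the cell cycle list (13/15), and TOB1 is lower with both (1/15 each). The TOB1 counts rest on 41 and 39 UMIs in all top cells, with none in some samples. The GADD45A points of all 4 panels include the HTO4+HTO10 cell with 73 UMIs.

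The genes whose levels over the 15 hashed samples were most like CDKN1A, among 2881 genes with a mean level of at least 0.5, were PRRC2C, PLAUR, TUBB2A, SERPINB9 and TNFRSF6B. Pearson's r on log2 levels was 0.959, 0.946, 0.945, 0.938 and 0.935 over 15 samples, which share a library and fall into the 3 sets. PLAUR, the urokinase receptor, had medians of 4.45 in the both-like, 2.33 in the TNF-like and 1.60 in the unstimulated-like samples. SERPINB9, an inhibitor of granzyme B, had medians of 1.30, 0.786 and 0.300 in the same order. PRRC2C followed the same order over a narrow range, with medians of 4.67, 4.16 and 3.45. TUBB2A, a tubulin, had 0.815, 0.544 and 0.375, and TNFRSF6B, a decoy receptor, 2.14, 1.60 and 0.914.

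Lists of related genes put the members in context. Between the both-like and the unstimulated-like samples, 6.84% of all tested genes were separated upwards and 12.6% downwards. Between the TNF-like and the unstimulated-like samples the shares were 2.92% and 1.63%. The counts in all lists below are to be read beside these shares, and higher or lower in those counts means separated by the same rule. Of 4 tested CDK inhibitors, only CDKN1A was separated in any comparison. In the BTG and TOB family, 3 of 5 tested genes were higher and 1 lower in the both-like than in the unstimulated-like samples. BTG2 had a ratio of 4.39 and TOB1 the lowest, 0.127, while BTG3 stood at 2.84. The same 3 BTG genes were higher in the TNF-like samples, at 4.58 for BTG2, 2.61 for BTG3 and 2.48 for BTG1. No family member was separated downwards there, although TOB1 had a ratio of 0.455, with overlap. BTG2 was near the limit of detection, with a median of 0.0147 in the unstimulated-like samples. Of the 11 CCR4-NOT subunits that this family binds or works with, 2 were lower in the both-like samples, CNOT6L at 0.283 and CNOT10 at 0.638, and none was separated in the TNF-like samples. The median CCR4-NOT ratio, 0.850, was that of all genes.

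Of 22 tested p53 target genes, 6 were higher and 4 lower in the both-like than in the unstimulated-like samples, with a list median of 1.12 where all genes had 0.848. The highest was BBC3, which encodes the death protein PUMA, with medians of 0.778 in the both-like, 0.183 in the TNF-like and 0.0220 in the unstimulated-like samples, a 35.3-fold ratio of the first to the third. The third median is that of HTO3+HTO7 with 2 BBC3 UMIs, and all 5 unstimulated-like samples held only 34, at levels of 0.0107 to 0.0652, so the size of this ratio is loosely set. The both-like samples, at 0.764 to 1.01 with 962 UMIs, lay far above them. FAS, a death receptor, had a ratio of 14.7, with 41 UMIs in the unstimulated-like samples, and PMAIP1, which encodes NOXA, 2.95. TNFRSF10B, a receptor of TRAIL, had 1.98. The lowest was GDF15, and ZMAT3 stood at 0.477, TRIAP1 at 0.484 and PHLDA3 at 0.657. In the TNF-like samples 4 were higher and 1 lower, with BBC3 at 8.31 and GDF15 at 0.453 the extremes. CDKN1A, MDM2 and GDF15 are themselves in this list.

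S phase genes were mostly lower. Of 21 tested, 11 were lower in the both-like than in the unstimulated-like samples and none higher, from MCM6 at 0.301 to MCM7 at 0.609, with a list median of 0.418. In the TNF-like samples 1 was separated, UNG at 0.621, and the list median was 0.777. Of 21 tested G2/M genes, 1 was separated in the both-like samples, CDK1 at 0.606, although the list median was 0.578. The summed S phase level was 2.02 to 3.66 in the both-like, 3.88 to 6.96 in the TNF-like and 5.16 to 7.59 in the unstimulated-like samples. The summed G2/M level was 0.694 to 5.81, 3.76 to 5.46 and 2.56 to 7.26 in the same order. Whether the CDKN1A and S phase differences are linked was not tested.

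Of 19 tested cyclins, kinases and their regulators, 2 were higher in the both-like than in the unstimulated-like samples, CDC25B at 1.86 and CCNL1 at 1.86, and 2 lower, CDK1 at 0.606 and CDK4 at 0.642. None of the 19 was separated in the TNF-like samples. Of all tested genes, 6.84% were higher and 12.6% lower in the both-like samples, so counts of 1 or 2 in lists this short say little. Of 9 genes of the E2F and RB families, RB1, the retinoblastoma protein gene, was higher at 1.81 and E2F5 lower at 0.546, and none was separated in the TNF-like samples. Of 9 tested genes of the MYC network, MXD1, which competes with MYC for the partner MAX, was higher at 2.67, and MGA at 0.586 and MLX at 0.601 were lower. Of 30 MYC target genes, 6 were lower in the both-like samples and none higher, from POLR1B at 0.322 to GNL3 at 0.625, with a list median of 0.728 where all genes had 0.848. In the TNF-like samples none of the MYC network or the MYC targets was separated.

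The amino acid and unfolded protein stress list, which holds known inducers of GADD45A and GDF15, had 3 of 21 tested genes higher and none lower in the both-like than in the unstimulated-like samples. ATF3 was the highest at 4.87 and XBP1 the lowest at 1.56. None was separated in the TNF-like samples. By their construction the sets also split the cytokine target lists. All 27 IFN-gamma targets were higher in the both-like than in the unstimulated-like samples, with CXCL11 at the top and PSMB8 lowest at 3.29, and 6 in the TNF-like samples, with GBP4 at 13.8 and TAP1 at 1.85. Of 25 tested NF-kB targets, 24 were higher in the both-like samples, from IER3 at 1.58 to CCL2 at 28.3, and 24 in the TNF-like samples, from CFLAR at 1.90 to LTB at 34.3.

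**Figure D5:**
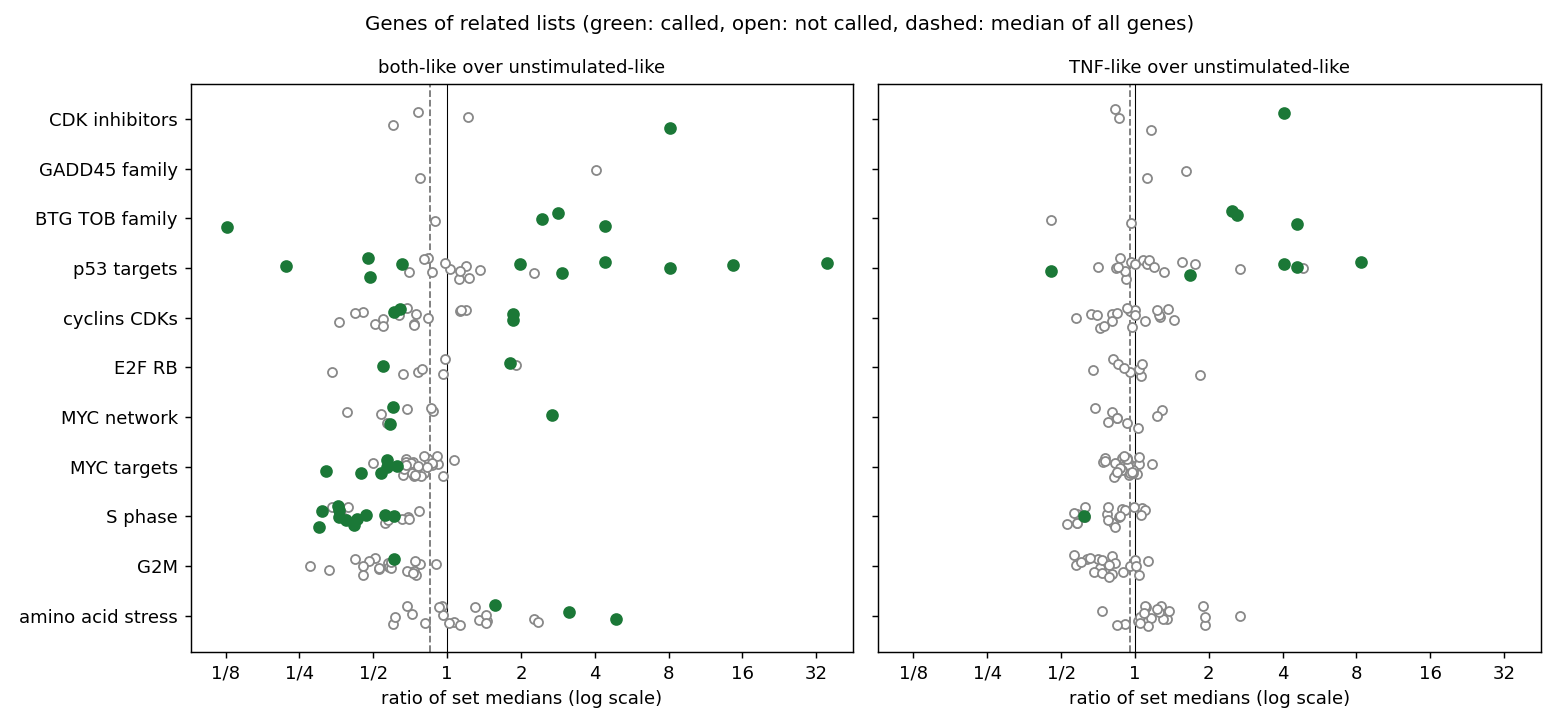
Ratio of set medians (x axes, log scale) of each tested gene in 11 related lists (y axis), for the both-like and the TNF-like over the unstimulated-like samples. Green points are genes whose sets did not overlap and differed at least 1.5-fold, and the dashed line is the median of all tested genes. The 11 green S phase genes lie left of 1, and the p53 targets spread from 0.220 to 35.3 (BBC3, whose unstimulated-like median level is that of a sample with 2 UMIs).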

How the data were processed

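Each value in the deposited matrix is a raw UMI count, not normalized, of a gene or hashtag in a barcode. It covers 5269 barcodes, 36601 genes and 10 hashtags. Both libraries share these barcodes, and 5267 of them had a hashtag count. Per the file headers, its writer was Cell Ranger 5.0.1, whereas Cell Ranger 2.1.1 and GRCh38 stand in the submitters' processing notes. The cell calling step is not stated there.

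Cells were kept with at least 1000 genes and at most 20% mitochondrial UMIs. A pair meant the 2 highest hashtags, where the lower of them reached 10 counts and 3 times the next. Cells without a clear pair were left out, which removes some mixed droplets. No doublet caller was run here, so doublets within a hashed sample were not sought. Levels are summed UMIs of a hashed sample per 10000 of its UMIs, with exact Poisson intervals at 95% that cover counting error only. As labels map no hashtag to a treatment, no test was run, and sets are described by values, medians and ranges. The 3 sets, the 10 members and the gene lists were chosen with earlier results of these data known. Named genes are the members, the separated genes of each list with the largest and smallest ratio (FAS, PMAIP1, TNFRSF10B, ZMAT3, TRIAP1, PHLDA3, BTG3, CCNL1, CDK4 and MLX were named after their values were seen), and the 5 genes most like CDKN1A on log2 of the level plus 0.05. The splits by NF-kB and IFN-gamma targets were added after seeing the data. The separation rule was tested on simulated counts for the both-like over unstimulated-like comparison (9402 genes, of which 50 at each fold). It called 100% of genes raised 4-fold, 92% of those at 0.25, 56% at 2-fold, 54% at 0.5 and 0.359% of unchanged genes. The simulation gave every gene the same spread between samples, chosen beforehand and not estimated from these data. In the data the spread differed by gene, from 1.21-fold for CCND1 to 3.97-fold for GADD45A in the both-like samples. The simulated shares are therefore not error rates of the real comparison. The values without 1 cell or 1 sample in the splits were added after seeing the data. Python 3.11.15, numpy 2.4.6, scipy 1.17.1, pandas 2.3.3 and matplotlib 3.10.9 were used. Annotation came from GENCODE 29 and promoter windows from RefSeq.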

Additional observations from a re-analysis of the deposited data

Results flagged for a closer look

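Of 30 groups of 5 hashed samples (10 genes in 3 sets), 2 held a sample far from its neighbours, where chance flags about 1 in 20. GDF15 in HTO4+HTO7 was 0.297 UMIs per 10000 (50 UMIs), below the next unstimulated-like sample at 0.472. CCND1 in HTO3+HTO5, the smallest hashed sample, was 4.71 (274 UMIs), below the next TNF-like sample at 6.14. The 1536 barcodes that the cell filters removed and that had a clear pair, which no comparison uses, held 6750 UMIs of the 10 genes, a summed level of 7.75 per 10000, against 13.2 in the cells used. CDKN1A stood at 0.381 in the removed barcodes and 0.761 in the cells used, and all 10 genes were lower in the removed barcodes. Those barcodes had few genes or a high mitochondrial share, and mitochondrial UMIs count in the total. The mix of hashed samples was not matched, so these levels are not directly comparable.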

How the results depend on the processing

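No paired analysis was possible because the labels give no replicate numbers and map no hashtag to a tumour. Over 900 alternative values of the 30 ratios of set medians, 847 moved by less than the spread between hashed samples, 53 moved by more, and no separated gene changed direction. Leaving out each hashed sample kept all 3 counts of separated members within 1.5 times and gave CDKN1A ratios of 6.26 to 9.26 (both-like over unstimulated-like), 3.15 to 4.66 (TNF-like over unstimulated-like) and 1.80 to 2.21 (both-like over TNF-like). Without the hashed samples of fewer than 75 cells, 8 members instead of 4 were separated between both-like and unstimulated-like samples, where the share of all genes was 28.04% instead of 19.5%, the CDKN1A ratios were 5.07 and 2.83, and the share of all genes separated was 7.33% between TNF-like and unstimulated-like and 14.9% between both-like and TNF-like samples, where fewer samples are left to overlap. Among the samples with HTO2 the CDKN1A ratios were the same because the same hashed samples set the medians, so this is no second check. HTO2+HTO7 is the only both-like sample there. Within HTO2, HTO3 or HTO4 alone, CDKN1A ratios were 5.07 to 10.1 for the both-like and 2.83 to 4.78 for the TNF-like over the unstimulated-like samples. Between both-like and TNF-like samples, 2 members instead of 4 were separated in thinned cells, with at most 15% mitochondrial UMIs, and without the cells highest for cell cycle genes, where the shares of all genes were 6.81%, 8.09% and 9.02% instead of 8.82%. The cause was not tested. With no minimum ratio, 8.13% of genes were separated between TNF-like and unstimulated-like and 15.04% between both-like and TNF-like samples. With a minimum of 2 the shares were 2.28% and 4.51%, and 10.7% between both-like and unstimulated-like samples. Depth limits CDKN1B, GDF15 and TOB1, whose lowest counts per hashed sample were 8, 6 and 5 UMIs.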
